A study of Mus musculus with 6 samples.

Results

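Wells that held at least 1 count of Tac1 and at least 1 count of Rprm were taken from single-cell RNA sequencing of the mouse ventromedial hypothalamus (VMH). These double-positive wells numbered 87 of the 530 wells kept, or 16.4% (exact 95% binomial interval 13.4 to 19.9%). The 443 other kept wells consisted of 106 with Tac1 and no Rprm, 107 with Rprm and no Tac1 and 230 with neither transcript. Cells came from 6 mice, 3 male and 3 female, each a plate of 96 wells. All mice were of genotype Ai14f/+;Sf1-Cre and postnatal day 10, so both sexes carried the same reporter and driver. Ai14f is a Cre-dependent fluorescent reporter and Sf1-Cre is active in cells that express or once expressed Nr5a1 (SF-1), so the sort collected a lineage and not cells with current Nr5a1. The hypothalamus was roughly dissected and dissociated with papain before sorting. Replicates are single mice. Kept wells had at least 500 genes with a count and under 25% of counts in mitochondrial genes.

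Tac1 encodes the precursor of the tachykinin peptides substance P and neurokinin A, which act on G protein-coupled receptors encoded by Tacr1, Tacr2 and Tacr3. Rprm encodes Reprimo, known as a target of p53 that arrests the cell cycle, and it is also transcribed in neurons that no longer divide. The VMH is a mostly glutamatergic nucleus that controls energy expenditure, glucose and social behaviours. In the mouse, its ventrolateral part holds neurons that express the estrogen receptor gene Esr1, and both Tac1 and Rprm have been used as markers of neurons there. The series title concerns estrogen receptor alpha signaling and energy expenditure that differs between the sexes. The comparisons here therefore set double-positive wells against the rest of the same plate, against wells with 1 of the 2 transcripts, and between males and females.

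Double-positive wells were found in every mouse. The males had 14 of 93, 15 of 84 and 16 of 92 kept wells, and the females 13 of 88, 9 of 87 and 20 of 86. The mean share was 16.8% ± 1.502 in males and 16.1% ± 6.56 in females (SD, n = 3 mice each), a difference of 0.643 percentage points (two-sided exact permutation p = 0.9, where 0.1 is the smallest p that 3 against 3 allows). Female shares spread from 10.3 to 23.3% and enclosed the male range of 15.1 to 17.9%. When every well was thinned to 2000 counts, the share was 4.94% ± 1.45 in males and 9.67% ± 2.71 in females, without overlap and in the opposite direction (exact p = 0.1). Thinning left 34 double-positive wells of 475 and removed 39 of the 87 kept wells of female 2, the shallowest plate.

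**Figure D1:**
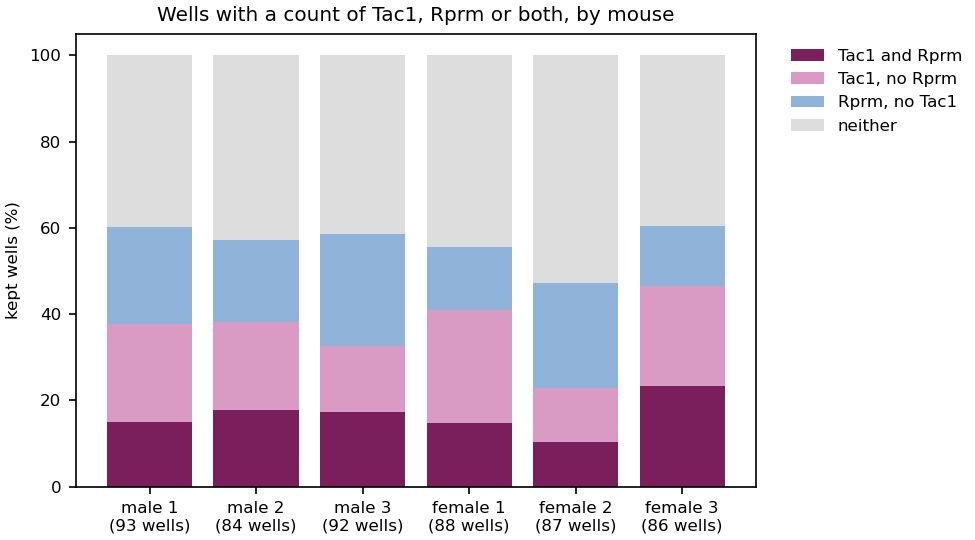
Share of kept wells (%) by the transcripts they held, for each mouse, with males left of females; the colours stand for wells with Tac1 and Rprm, Tac1 without Rprm, Rprm without Tac1, and neither. The double-positive share lies between 15.1 and 17.9% in males and between 10.3 and 23.3% in females.

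The wells were chosen by their Tac1 and Rprm counts, so these values are a description, with no test. Tac1 lies at chr6:7554879-7565834 and Rprm at chr2:54084093-54085552 (mm10). The median double-positive well held 5 counts of Tac1 and 2 of Rprm, and the highest counts were 125 of Tac1 and 25 of Rprm. Membership often rested on few counts: 15 wells held 1 count of each transcript, 26 held 1 count of Tac1 and 39 held 1 count of Rprm, while 37 held at least 2 of each. Just outside the rule, 16 of the wells with Tac1 and no Rprm held 1 Tac1 count and 45 of the wells with Rprm and no Tac1 held 1 Rprm count. Summed over double-positive wells, Tac1 stood at 1106, 935 and 2045 counts per 1000000 (CPM) in the males and 2555, 3443 and 2259 CPM in the females. In each mouse 1 well held 22.5 to 46.4% of these Tac1 counts. Across mice, Tac1 averaged 2057 ± 935 CPM in double-positive wells and 1973 ± 737 CPM in wells with Tac1 and no Rprm (SD, n = 6). Rprm averaged 511 ± 336 CPM in double-positive wells and 487 ± 323 CPM in wells with Rprm and no Tac1. For both genes the groups overlapped across most of their ranges.

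The double-positive wells numbered 87, and the product of the shares of Tac1 wells (193) and Rprm wells (194) within each mouse gave 70.4. The ratio of the observed number to that product was 1.24 over all mice and lay above 1 in each of them, from 1.06 in male 1 to 1.34 in female 3. Depth moved with it. With each plate split into 3 depth classes of like size, 10 double-positive wells lay in the shallowest class, 36 in the middle one and 41 in the deepest. With the product taken within those classes, the number was 78.5 and the ratio 1.11. The 46 wells left out, with a median of 27.5 counts, held Tac1 once and Rprm in no case.

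Double-positive wells were deeper than the rest of their plate, which touches every share of wells given below. The median count per well ran, over mice, from 2232 to 11753 in double-positive wells and from 2060 to 7652 in other wells. It was higher in double-positive wells in 6 of 6 mice (two-sided exact paired permutation p = 0.031, the smallest p that 6 pairs allow, 0.0781 after Benjamini-Hochberg adjustment over 5 quality measures). The share of counts in mitochondrial genes was 4.36 to 6.55% in double-positive wells and 4.41 to 5.50% in other wells (higher in 4 of 6 mice, exact p = 0.1875). Summed immediate early genes, which respond to activity and to tissue dissociation, stood at 148 to 428 CPM in double-positive wells and 254 to 751 CPM in other wells (lower in 5 of 6 mice, exact p = 0.09375, adjusted 0.117). For this reason shares are also given for 87 other wells of the same plates matched on total counts.

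The label of neurons held. All 87 double-positive wells carried at least 3 of 8 neuronal marker genes (Snap25, Syt1, Tubb3, Stmn2, Rbfox3, Elavl4, Map2 and Uchl1), as did 425 of 443 other wells. Slc17a6, the vesicular glutamate transporter of VMH neurons, was detected in 71 of 87 double-positive wells (81.6%), 336 of 443 other wells (75.8%) and 78.2% of depth-matched wells. At least 2 GABAergic markers occurred in 2 double-positive wells (2.30%, interval 0.280 to 8.06%), 33 other wells (7.45%) and 6 depth-matched wells (6.90%). Slc32a1, which encodes the vesicular GABA transporter, had no count in double-positive wells, and neither had Dlx1, Dlx2, Dlx5 or Dlx6. The 10 astrocyte markers together stood at 247 to 604 CPM in double-positive wells and 495 to 1139 CPM in other wells, lower in double-positive wells in 5 of 6 mice. Aldoc made up much of both sums. Aldh1l1, Aqp4 and Agt were at 0 in double-positive wells and were found in 0.903, 1.13 and 3.16% of other wells, while Slc1a2 was found in 13.8% of double-positive and 7.67% of other wells and Gfap in 3.45 and 0.903%. Of 7 microglial markers, 5 (C1qa, C1qb, C1qc, Cx3cr1 and Tyrobp) were at 0 in double-positive and in other wells alike. Aif1 was found in 5.75% of double-positive, 2.48% of other and 1.15% of matched wells, and the summed list was at 0 to 49.4 CPM in double-positive wells and 1.54 to 21.9 CPM in other wells, higher in 4 of 6 mice. The 5 endothelial markers stood at 38.6 to 148 CPM in double-positive wells and 18.5 to 54.5 CPM in other wells, higher in 6 of 6 mice. Itm2a was found in 26.4% of double-positive and 12.6% of other wells, Pecam1 in 4.60 and 2.26% and Flt1 in 1.15 and 0.226%. Cldn5 and Ly6c1 were at 0 in double-positive wells and in 1 and 0 of the 443 other wells. The 9 oligodendrocyte markers stood at 29.0 to 247 CPM in double-positive wells and 37.1 to 150 CPM in other wells. They were higher in 3 of 6 mice. The 5 ependymal and tanycyte markers stood at 0 to 53.5 and 11.6 to 32.8 CPM, higher in 2 of 6 mice. Among these, Foxj1 was found in 6.90% of double-positive, 2.26% of other and 1.15% of matched wells, and Ccdc153 in 1.15, 1.58 and 1.15%. Markers of neighbouring regions were at 0 to 7109 CPM in double-positive wells and 30.1 to 224 CPM in other wells. The top value came from 1 well of female 3 with 1195 counts of Pmch, the precursor of melanin-concentrating hormone of the lateral hypothalamus. It was also the deepest kept well, with 22385 counts. The part of these markers in the results below was not tested.

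In sums over wells per mouse, double-positive wells had more of Adcyap1, the cerebellins Cbln1 and Cbln4, Nrgn, Nnat and A2ml1, and less of Sst, Calb1 and Nap1l5, than the other wells of the same mouse. Of 2971 genes tested, 24 passed an adjusted p of 0.05 (0.808%), 13 higher (0.438%) and 11 lower (0.370%) in double-positive wells, with edgeR's quasi-likelihood test, the mouse as a block and Benjamini-Hochberg adjustment. Tac1 and Rprm were removed from the tables and from library sizes. The same direction in all 6 mice was seen for 60 genes higher (2.02%) and 67 genes lower (2.26%). The count depends on the tool. DESeq2 called 3 of the 24 (A2ml1, Nrgn and Nnat), limma on the mean log level per well called 4 (Adcyap1, Nrgn, Cbln1 and Nnat), and the fit without the mouse as a block called 0, with 221 genes (7.44%) at an unadjusted p under 0.05 in the fit with it. A sum of counts can also rest on a few wells, so the share of the top well is given where it was large.

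Nrgn (chr9:37544492-37552904) encodes neurogranin, a postsynaptic protein that binds calmodulin. It stood at 1263, 1409 and 1889 CPM in double-positive wells of the males and 1476, 593 and 1733 CPM in those of the females. Other wells had 926, 830 and 834 CPM in the males and 1303, 133 and 1154 CPM in the females. Every mouse was higher in its double-positive wells, although the groups overlapped between mice. Female 2 was low in both, and double-positive wells of male 1 (1263 CPM) lay below other wells of female 1 (1303 CPM). The log2 fold change was 0.69 (SE 0.0775, adjusted p = 4.79e-15). Nrgn was detected in 80 of 87 double-positive wells and 305 of 443 other wells, and no single well held more than 4.38% of its counts in double-positive wells.

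Nnat (chr2:157560078-157562522) encodes neuronatin, an imprinted gene product linked to calcium handling in the endoplasmic reticulum. Its level was 2691 at the lowest, 3176 at the median and 3851 CPM at the highest in double-positive wells, against 2065, 2453 and 3130 CPM in other wells. Each of the 6 mice was higher in double-positive wells (log2 fold change 0.37, SE 0.0619, adjusted p = 3.87e-06), and all 87 of these wells held a count. Nap1l5 (chr6:58905233-58907076), another imprinted gene, moved the other way in all 6 mice. It stood at 1006, 1823 and 2816 CPM (lowest, median and highest) in double-positive wells and 1154, 2135 and 3588 CPM in other wells (log2 fold change -0.35, SE 0.0687, adjusted p = 1.97e-04). Of 16 imprinted genes in the tables, 8 were tested, 1 rose and 1 fell, against 0.438% higher and 0.370% lower over all genes, with a median log2 fold change of 0.08 against -0.01 over all genes.

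Secreted peptides and synaptic organizers held 6 of the 24 genes that passed. Of 27 such genes other than Tac1, 10 passed the filter on low counts, of which 5 rose (Adcyap1, Cbln1, Cbln4, Penk and Nts) and 1 fell (Sst), against 0.438% higher and 0.370% lower over all genes, with a median log2 fold change of 0.57 against -0.01 over all genes. Of these 6 genes, DESeq2 called 0 and limma called Adcyap1 and Cbln1, and the Penk, Nts and Sst values rested on few wells. Adcyap1 (chr17:93199017-93206537) encodes PACAP, a peptide abundant in VMH neurons. In double-positive wells it stood at 251, 126 and 244 CPM in the males and 322, 296 and 124 CPM in the females, against 108, 111 and 111 CPM in other wells of the males and 167, 157 and 123 CPM in those of the females. Female 3 differed by about 1 CPM and the other mice by more, so the sums of the groups overlapped (log2 fold change 0.79, SE 0.170, adjusted p = 1.03e-03). Cbln1 (chr8:87468405-87472609) encodes cerebellin 1, which links presynaptic neurexins to postsynaptic receptors. It stood at 229, 344 and 428 CPM (lowest, median and highest) in double-positive wells and 153, 213 and 262 CPM in other wells, higher in 6 of 6 mice (log2 fold change 0.66, SE 0.136, adjusted p = 4.06e-04). Its relative Cbln4 had a log2 fold change of 0.78 and was higher in 5 of 6 mice (SE 0.184, adjusted p = 5.02e-03).

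The same 3 genes were also found in a larger share of double-positive than of other wells, a measure that single rich wells cannot move far. Adcyap1 was detected in 61 of 87 double-positive wells (70.1%, interval 59.4 to 79.5%), 34.8% of other wells and 40.2% of depth-matched wells. By mouse the share was 70.3% ± 10.6 in double-positive wells and 34.8% ± 7.65 in other wells (SD, n = 6), higher in 6 of 6 mice, also against the depth-matched wells. Cbln1 was detected in 81.6% of double-positive wells (71.9 to 89.1%), 47.2% of other wells and 58.6% of depth-matched wells, again higher in 6 of 6 mice in both comparisons. Cbln4 was detected in 51.7% of double-positive wells (40.8 to 62.6%), 27.1% of other wells and 31.0% of depth-matched wells, with 6 of 6 mice higher than in other wells and 5 of 6 higher than in matched wells. Wells with Tac1 and no Rprm lay between, with Adcyap1 in 48.1% (38.3 to 58.0%), Cbln1 in 67.0% (57.2 to 75.8%) and Cbln4 in 32.1% (23.3 to 41.8%). The interval of Cbln1 there overlapped that of double-positive wells, and its level did not pass against those wells (log2 fold change 0.31, SE 0.160, adjusted p = 0.808). Wells with Rprm and no Tac1 also lay between double-positive and other wells, with Adcyap1 in 40.2%, Cbln1 in 54.2% and Cbln4 in 30.8%. Bdnf, the brain-derived neurotrophic factor gene, was detected in 63.2, 43.6 and 50.6% of double-positive, other and matched wells. Its level was higher in 6 of 6 mice without passing the test (log2 fold change 0.36, SE 0.165, adjusted p = 0.572).

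**Figure D2:**
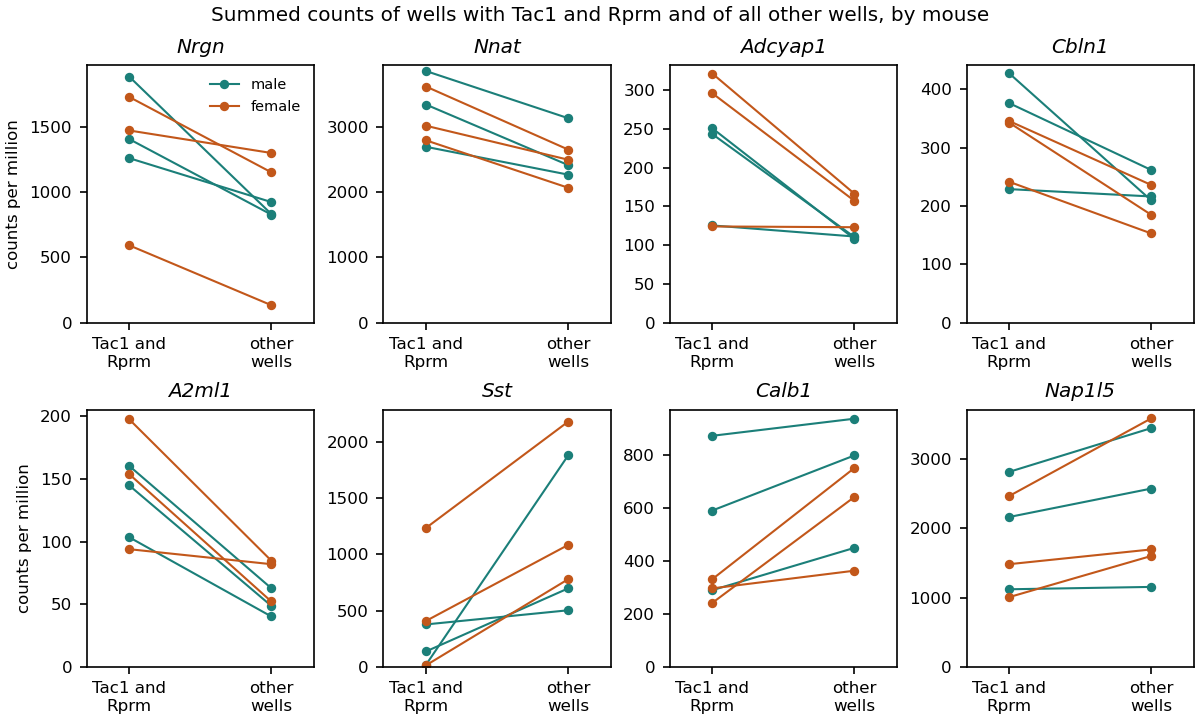
Level in CPM (vertical axis from 0) of 8 genes in wells with Tac1 and Rprm (left) and in all other wells (right), 1 line for each mouse. Nrgn, Nnat, Adcyap1, Cbln1 and A2ml1 are higher on the left in 6 of 6 mice, and Sst, Calb1 and Nap1l5 are lower on the left in 6 of 6 mice.

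Penk and Nts rested on few wells. Penk, the precursor of the enkephalins, had 92 counts in 21 double-positive wells and 150 counts in 58 other wells (log2 fold change 1.26, SE 0.230, adjusted p = 2.80e-05), and it was higher in 4 of 6 mice. Nts, the neurotensin precursor, had 131 counts in 8 double-positive wells, 58 of them in 1 well of male 1, and 122 counts in 32 other wells. Its log2 fold change of 1.91 (SE 0.241, adjusted p = 9.42e-12) was 0.29 without male 1. Neither gene passed with DESeq2 or limma.

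Sst (chr16:23889573-23890958), which encodes somatostatin, had the largest decrease. It stood at 377, 19.3 and 137 CPM in double-positive wells of the males and 13.4, 1235 and 408 CPM in those of the females, against 502, 1879 and 697 CPM in other wells of the males and 778, 2179 and 1083 CPM in those of the females. All 6 mice were lower in double-positive wells (log2 fold change -1.94, SE 0.121, adjusted p = 4.14e-46), while the share of wells with a count was 21.8% in double-positive wells and 18.96% in other wells. The difference lay in wells rich in Sst. The highest double-positive well held 43 counts, while the highest other well of each mouse held 102 to 405 counts. Against other wells with a count of Slc17a6 and none of Gad1, Gad2, Slc32a1 or Pomc, the log2 fold change of Sst was 0.14. This filter was not applied to the double-positive wells, and which of its conditions mattered was not tested. Sst did not pass with DESeq2.

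Calb1 (chr4:15881264-15908064), the calcium buffer calbindin, stood at 242, 314 and 873 CPM (lowest, median and highest) in double-positive wells and 363, 696 and 938 CPM in other wells, lower in 6 of 6 mice (log2 fold change -0.58, SE 0.102, adjusted p = 8.50e-06). Of 12 tested genes listed for calcium binding or handling, 1 rose (Nnat, also among the imprinted genes) and 1 fell (Calb1), against 0.808% called over all genes. Their median log2 fold change was 0.01. The other genes that passed the test and fell in all 6 mice were Tmem176b, Brinp1, Rac1 and Itm2b, with log2 fold changes of -1.20, -0.74, -0.42 and -0.38. Tmem176b and Brinp1 were at 0 in the double-positive wells of female 2, whose 9 wells hold 20334 counts. Aldoc, an aldolase that is also an astrocyte marker, stood at 381 ± 164 CPM in double-positive wells and 558 ± 124 CPM in other wells (log2 fold change -0.52, SE 0.110, adjusted p = 8.24e-04, lower in 5 of 6 mice). It was the only astrocyte marker that passed the filter on low counts. A2ml1 (chr6:128539821-128581608), a protease inhibitor gene of the alpha-2-macroglobulin family, stood at 93.9, 149 and 198 CPM in double-positive wells and 40.2, 57.4 and 84.8 CPM in other wells, without overlap (log2 fold change 1.26, SE 0.224, adjusted p = 1.25e-05). Clmp, Tmem163 and Map1a were also higher in 6 of 6 mice, with log2 fold changes of 1.013, 0.73 and 0.68.

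Among VMH identity genes, 6 of 15 were tested and Adcyap1 alone rose. Nr5a1, the gene of the driver that marks the lineage, was detected in 28 of 87 double-positive wells (32.2%), 28.9% of other wells and 31.0% of matched wells. Its share in double-positive wells ranged from 0 of 9 in female 2 to 9 of 13 in female 1, and its level was 62.2 ± 68.3 CPM in double-positive wells and 85.5 ± 36.8 CPM in other wells (log2 fold change -0.40, SE 0.266, adjusted p = 0.824). By mouse the Nr5a1 share averaged 30.9% ± 25.8 in double-positive wells and 29.1% ± 9.85 in other wells (two-sided exact paired permutation p = 0.781). Fezf1, a transcription factor needed for VMH development, was detected in 49.4% of double-positive, 37.9% of other and 46.0% of matched wells (log2 fold change 0.24, SE 0.164, adjusted p = 0.837). Pdyn, the dynorphin precursor, stood at 165 ± 68.1 CPM in double-positive wells and 227 ± 92.2 CPM in other wells, lower in 6 of 6 mice but not past the test (log2 fold change -0.42, SE 0.157, adjusted p = 0.312). Slc17a6 had a log2 fold change of -0.07 (adjusted p = 0.964). Cartpt was detected in 20.7% of double-positive and 9.26% of other wells, higher in 5 of 6 mice, with a log2 fold change of 0.49 (adjusted p = 0.689). Only 4 of 87 double-positive wells (4.60%, interval 1.27 to 11.4%) held none of Nr5a1, Fezf1, Pdyn and Adcyap1, against 126 of 443 other wells (28.4%) and 26 of 87 depth-matched wells (29.9%). This set includes Adcyap1, the gene that rose. Pdyn or Nr5a1 was found in 55.2% of double-positive, 54.4% of other and 60.9% of matched wells. Fezf1 and Slc17a6 occurred together in 42.5, 35.4 and 44.8%.

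Transcription factors were mostly too low for the sums, and 8 of 33 were tested. Bcl11a, a zinc finger factor, rose (log2 fold change 0.90, SE 0.232, adjusted p = 0.0202), although in 4 of 6 mice only, and was detected in 41.4% of double-positive wells, 23.7% of other wells and 28.7% of matched wells. Its paralog Bcl11b was detected in 20.7, 8.35 and 6.90% of those wells, higher than in other wells in 4 of 6 mice. Female 1 supplied 8 of its 18 double-positive wells, and without female 1 the shares were 13.5, 8.15 and 2.70%. Zfhx3, a homeobox and zinc finger factor, was detected in 27.6, 10.6 and 18.4%, with 6 of 6 mice higher than in other wells and 4 of 6 higher than in matched wells. The nuclear factor I genes pointed the other way. Nfia was detected in 0 of 87 double-positive wells (a limit of 3.45% from 3 counts, while the exact interval reaches 4.15%), against 8.80% of other wells and 4.60% of matched wells. Any of Nfia, Nfib and Nfix was found in 2 double-positive wells (2.30%), 72 other wells (16.3%) and 7 matched wells (8.05%). Tcf4 was detected in 3.45% of double-positive, 16.9% of other and 9.20% of matched wells, and Vgll2 in 1.15, 9.26 and 6.90%. Each of Nfia, Nfix, Tcf4 and Vgll2 was lower in 6 of 6 mice than in other wells. Against matched wells, Nfix was lower in 5, Nfia and Vgll2 in 4 and Tcf4 in 2 of 6 mice, with none higher. Nfix and Vgll2 were each held by 1 double-positive well, of male 1, and by 0 without that mouse. The intervals of the double-positive and the matched wells overlapped for each of these genes.

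**Figure D3:**
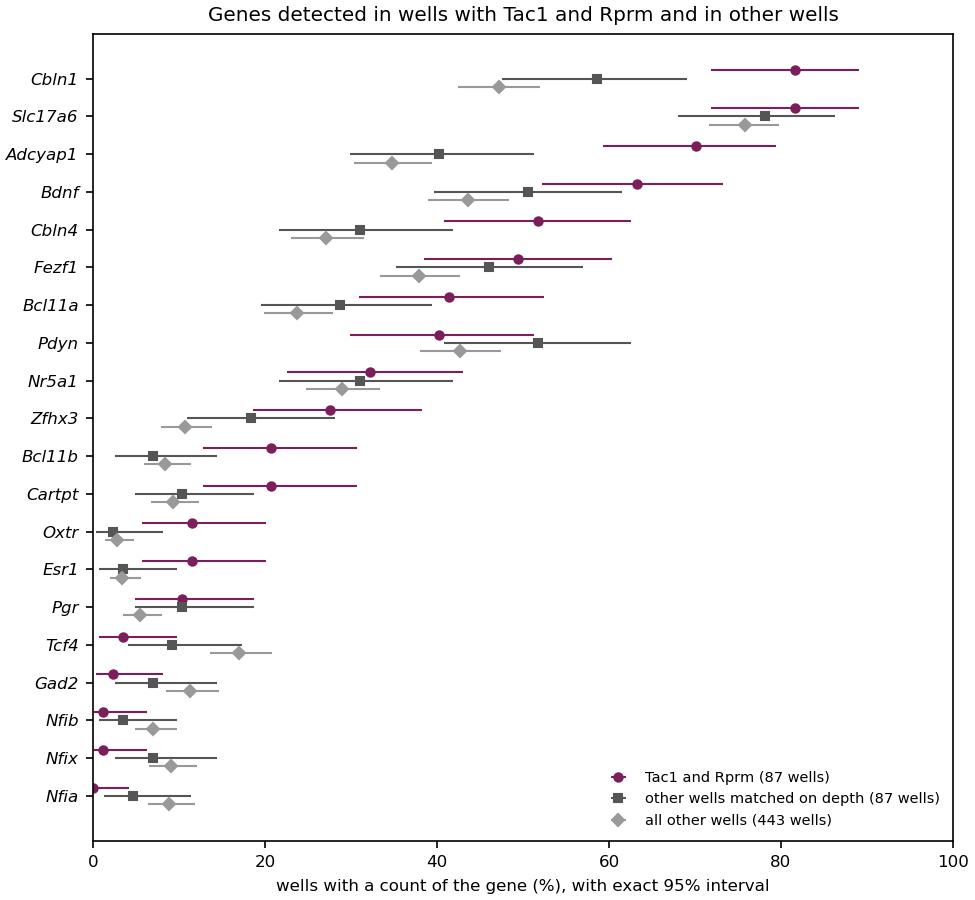
Share of wells with a count of 20 genes (%), with exact 95% intervals that cover counting error only, in wells with Tac1 and Rprm, in other wells of the same plates matched on total counts, and in all other wells. Adcyap1 was at 70.1, 40.2 and 34.8% in these 3 sets and Nfia at 0, 4.60 and 8.80%.

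Few genes of the tachykinin and p53 pathways passed the filter. Of the tachykinin system other than Tac1, 0 of 7 were tested. The receptor genes Tacr1 and Tacr3 were detected in 3.45 and 2.30% of double-positive wells and 4.06 and 2.48% of other wells, and Tacr2 had no count in either. Ece1, which encodes a peptidase known to cleave substance P, was detected in 16.1% of double-positive wells, 6.55% of other wells and 9.20% of matched wells, higher than in other wells in 6 of 6 mice and than in matched wells in 3 of 6, with 1 lower. Among 18 genes related to Reprimo and p53, 2 were tested and neither passed. The Reprimo-like gene Rprml was detected in 34.5% of double-positive wells, 19.4% of other wells and 19.5% of matched wells, and in 35.8% of wells with Tac1 and no Rprm and 15.9% of wells with Rprm and no Tac1. Cdkn1a, the p53 target that encodes p21, was detected in 6.90% of double-positive, 13.3% of other and 17.2% of matched wells, and without female 3 in 4.48, 13.8 and 17.9%. Wells with Tac1 and no Rprm were as low, at 7.55%, and wells with Rprm and no Tac1 stood at 19.6%. Trp53 itself was detected in 20.7, 10.8 and 11.5%. The proliferation genes Cdk1 and Ccnb1 were in 0 double-positive wells and in 1 and 2 of the 443 other wells.

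Esr1 (chr10:4611593-5005614), the estrogen receptor alpha gene, was detected in 10 of 87 double-positive wells (11.5%, interval 5.65 to 20.1%), 15 of 443 other wells (3.39%) and 3 of 87 matched wells (3.45%). All 10 lay in females. In the males, 0 of 14, 0 of 15 and 0 of 16 double-positive wells held a count, a limit of 6.67% over 45 wells from 3 counts (the exact interval reaches 7.87%, and both treat wells of 3 mice as independent), against 7 of 224 other wells. The females had 0 of 13, 2 of 9 and 8 of 20, together 23.8% (12.1 to 39.5%), against 8 of 219 other wells. By mouse the share averaged 10.4% ± 17.0 in double-positive wells and 3.41% ± 1.84 in other wells, higher in 2 of 6 mice (two-sided exact paired permutation p = 0.5, adjusted 0.75 over Esr1, Pgr and Nr5a1). Female 3 supplied 8 of the 10 wells. Without it the share over wells was 2.99% in double-positive and 3.18% in other wells, and the mean difference by mouse was 1.27 percentage points. Of these 10 wells, 8 held 1 count of Esr1 and 2 held 2 counts, and none held Nr5a1. Their Tac1 counts ran from 1 to 125 and their Rprm counts from 1 to 11. They came from females 2 and 3, where Nr5a1 was found in only 0 of 9 and 5 of 20 double-positive wells. Nr5a1 and Esr1 occurred together in 2 of 443 other wells.

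Other steroid-related genes of the ventrolateral VMH were sparse. Pgr, the progesterone receptor gene, was detected in 10.3% ± 6.59 of double-positive wells by mouse and 5.54% ± 3.45 of other wells (exact paired permutation p = 0.1875, adjusted 0.5625), and in 10.3% of matched wells. Oxtr, the oxytocin receptor gene, was detected in 10 of 87 double-positive wells (11.5%), 12 of 443 other wells (2.71%) and 2 of 87 matched wells (2.30%), higher in 6 of 6 mice than in other wells and in 5 of 6 than in matched wells. Cyp19a1, which encodes aromatase, was detected in 5 double-positive wells (5.75%), 4 other wells (0.903%) and 1 matched well. These genes passed no filter for the test across genes.

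**Figure D4:**
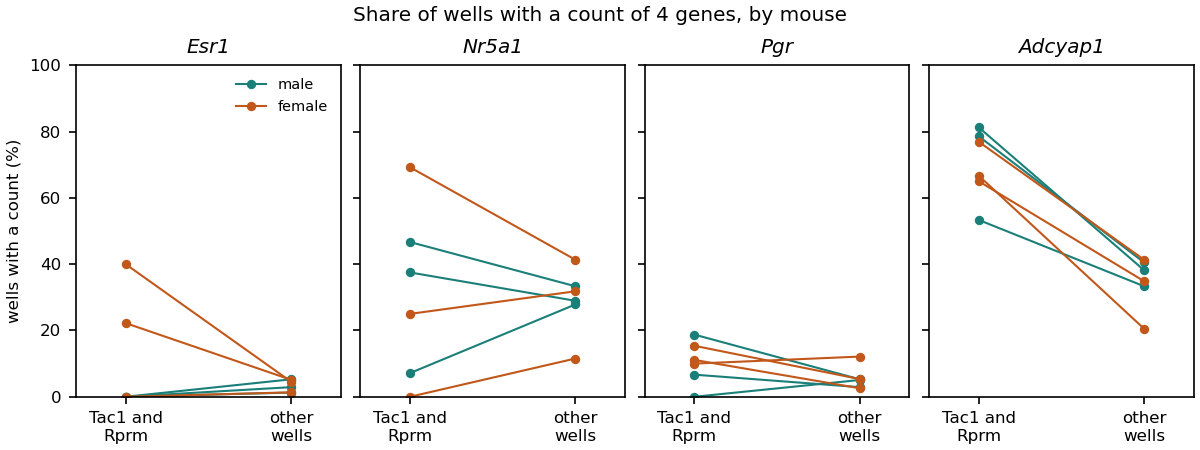
Share of wells with a count (%) of Esr1, Nr5a1, Pgr and Adcyap1 in wells with Tac1 and Rprm (left) and in all other wells (right), 1 line for each mouse. Adcyap1 is higher on the left in 6 of 6 mice, Esr1 in 2 of 6, both female, and Nr5a1 in 3 of 6.

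Against wells with Tac1 and no Rprm, 2 of 2313 genes passed (0.0865%), Aldoc (log2 fold change -0.63, SE 0.130, adjusted p = 0.0169) and Calb1 (-0.57, SE 0.126, adjusted p = 0.0336). Both were lower in double-positive wells, Aldoc in 5 and Calb1 in 4 of 6 mice. Neither passed with DESeq2 or without the mouse as a block, which each called 0 genes, and 141 genes (6.1%) had an unadjusted p under 0.05. The next genes by p did not pass, and A2ml1 among them was higher in 6 of 6 mice at 142 ± 38.4 CPM in double-positive wells and 63.7 ± 18.97 CPM in wells with Tac1 alone (log2 fold change 0.99, SE 0.266, adjusted p = 0.180). Cox6a2 and Atp1b2 had log2 fold changes of -1.38 and -0.50 (adjusted p = 0.159 each). Nrgn differed by 0.17 (SE 0.0877, adjusted p = 0.806), Adcyap1 by 0.33 (SE 0.202, adjusted p = 0.863) and Sst by 0.16 (SE 0.380, adjusted p = 0.966).

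Against wells with Rprm and no Tac1, 8 of 2056 genes passed (0.389%). In double-positive wells, 6 of these rose (0.292%) and 2 fell (0.0973%). Nrgn (0.92, SE 0.126, adjusted p = 4.76e-08), Penk (1.32, SE 0.309), Adcyap1 (0.91, SE 0.224), A2ml1 (1.15, SE 0.297), Cbln1 (0.67, SE 0.174) and Calb2 (0.46, SE 0.114) rose on the log2 scale. Adcyap1 was higher in 6 of 6 mice and the others in 5 of 6. Calb2 encodes calretinin and stood at 1091 ± 693 CPM in double-positive wells and 773 ± 442 CPM in wells with Rprm alone. Sst fell (log2 fold change -2.78, SE 0.212, adjusted p = 1.71e-20), at 365 ± 459 CPM in double-positive wells and 2349 ± 2234 CPM in wells with Rprm alone. It was lower in 5 of 6 mice, 1 well held 37.2% of the 1090 counts in wells with Rprm alone, and those wells of males 2 and 3 stood at only 58.3 and 47.2 CPM. Sst was found in 21.8% of double-positive wells and 21.5% of wells with Rprm alone, and it did not pass with DESeq2. The adaptor subunit gene Ap1s2 also fell (-1.001, SE 0.206, adjusted p = 2.96e-03), although in 4 of 6 mice. DESeq2 and the fit without the mouse as a block called 0 genes here, and 137 genes (6.66%) had an unadjusted p under 0.05. These 3 comparisons share the double-positive wells, so their values are set side by side and not compared.

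**Figure D5:**
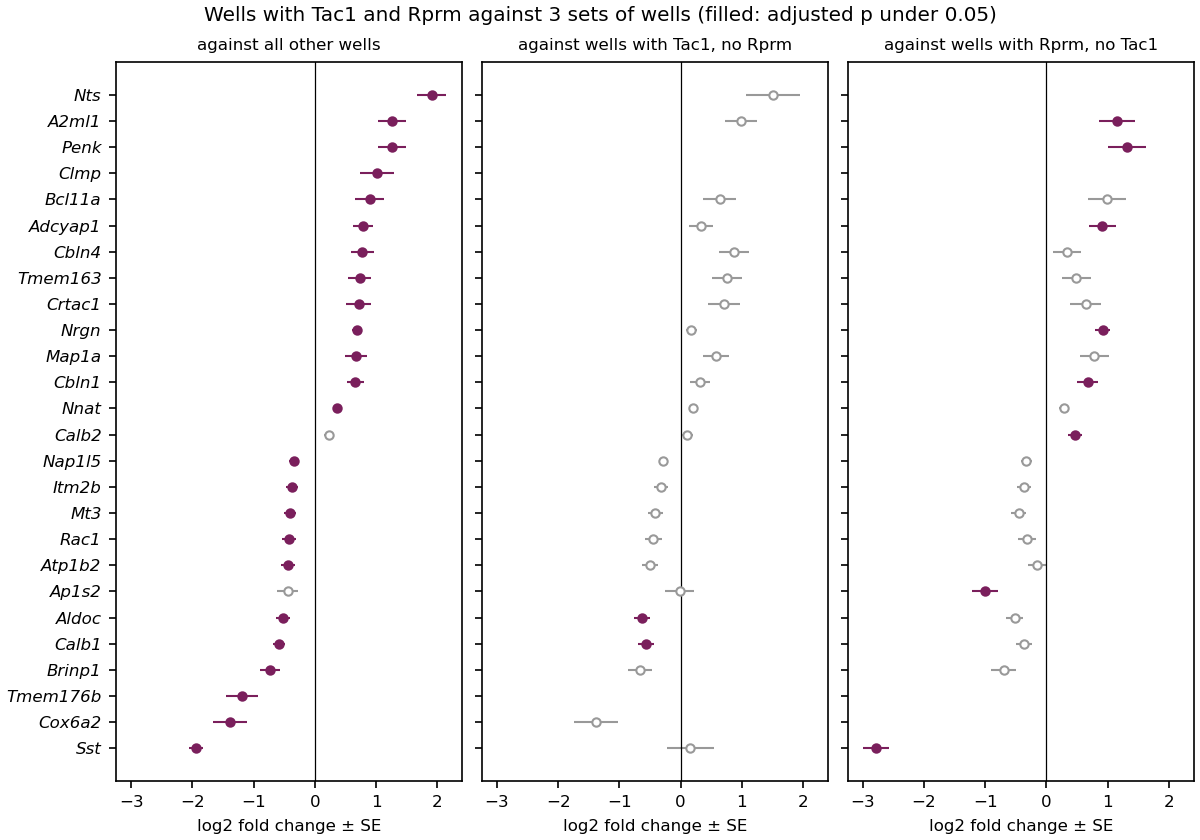
Log2 fold change with standard error of genes in wells with Tac1 and Rprm against all other wells (left), wells with Tac1 and no Rprm (middle) and wells with Rprm and no Tac1 (right); filled points passed an adjusted p of 0.05. Nrgn stood at 0.69, 0.17 and 0.92 and Sst at -1.94, 0.16 and -2.78 in the 3 comparisons.

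Between the sexes, 0 of 2301 genes tested in double-positive wells passed (0.0%) with edgeR, with 64 (2.78%) at an unadjusted p under 0.05, and DESeq2 called 0 as well, with 19. The gene with the smallest p was the imprinted gene Ndn, which encodes necdin. It stood at 3456, 3253 and 3630 CPM in double-positive wells of males and 1261, 2421 and 1390 CPM in those of females, without overlap (log2 fold change 1.10, SE 0.254, adjusted p = 0.999). Wdr34, Ift57, Eif4a2 and Sf3a3 followed, each lower in all 3 males, with log2 fold changes of -1.96, -1.96, -2.40 and -1.42 that did not pass. A lack of overlap between the sexes was seen for 118 genes higher (5.13%) and 77 genes lower (3.35%) in males, so that it does not set these genes apart. Bdnf stood at 165 ± 45.0 CPM in males and 262 ± 29.9 CPM in females without overlap and did not pass. Sst stood at 178 ± 182 CPM in males and 552 ± 624 CPM in females, Nr5a1 at 48.0 ± 36.3 and 76.4 ± 98.7 CPM and Pdyn at 183 ± 49.4 and 148 ± 90.7 CPM, each with overlap.

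The difference between double-positive and other wells was also compared between the sexes, as an interaction. It passed for 2 of 3716 genes (0.0538%), of which Tubb2b, a beta-tubulin gene, was the only one with no overlap between the sexes. A lack of overlap was seen for 5.97% of all genes tested (higher in males) and 4.57% (lower in males). In the males, Tubb2b stood at 1928, 1902 and 1687 CPM in double-positive wells and 1745, 2169 and 1825 CPM in other wells. In the females it stood at 1274, 2915 and 2336 CPM in double-positive wells and 1000, 1822 and 1455 CPM in other wells. The male log2 fold change minus the female one was -0.60 (SE 0.142, adjusted p = 0.0489), and DESeq2 called 0 genes in this comparison.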

How the data were processed

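Messenger RNA was counted in single sorted wells, 96 per mouse, with the BD Precise whole transcriptome kit, per the labels' protocols. The authors deposited a raw count for each of 21926 genes in each well, with no scaling. HTSeq and the mm10 genome are named in the submitters' processing notes. The sources used here give no version, aligner or strand setting and do not say if a count is a molecule or a read. Antisense or overlapping genes were not separated further. Kept wells held 634 to 22385 counts, and the plates 185654 (female 2) to 783270 (male 1). Well names are plate positions shared by all 6 plates. No doublet caller was run.

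Counts were summed per mouse over double-positive wells and over each comparison set, without Tac1 and Rprm, since cells are not replicates. The test was edgeR's quasi-likelihood test (version 4.0.16, R 4.3.3) after TMM scaling and its default filter on low counts (filterByExpr), at a Benjamini-Hochberg adjusted p of 0.05, with the mouse as a block where both sums came from the same mouse and plate. Fold changes are log2, double-positive over other wells or male over female, with SE taken as the fold change divided by the square root of the F statistic. CPM scale a sum to 1000000 counts. DESeq2 1.42.0 and limma 3.58.1 gave alternatives. Counts that sit in 1 well make the edgeR p too small, so the counts behind such genes are given. The fits were tested on simulated data with 200 genes changed 4-fold and 1 dispersion for all genes of a comparison. Over the comparisons, 78.5 to 96% of the changed genes were recovered, with 6 to 9 false calls. The simulated counts did not gather in single wells, so this test cannot judge the p of genes whose counts do. Shares have exact 95% intervals that cover counting error only, and 3 counts were taken as the upper limit behind a 0. Shares by mouse were compared with exact permutation tests (scipy 1.17.1).

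The double-positive wells, the 26 gene lists and the tests were chosen with earlier results of these data known. Of the alternatives, 43 were planned and 12 added after seeing the data. Genes were named by a rule: up to 12 per direction (6 in the comparisons with wells of 1 transcript) that passed the test, moved the same way in every mouse and reached 20 CPM on either side, by size. Where fewer than 3 met it, the 5 with the smallest p were named, plus up to 4 called members of each list, and 10 fixed genes (Esr1, Pgr, Nr5a1, Fezf1, Slc17a6, Pdyn, Sst, Cartpt, Adcyap1 and Bdnf). Genes given only as shares of wells were chosen from the lists after their values were seen, as was Pmch. Positions are from GENCODE vM21 (mm10).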

Additional observations from a re-analysis of the deposited data

Results flagged for a closer look

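The difference between double-positive and other wells itself differed between the sexes for 2 genes by the interaction test in edgeR. For Tubb2b the male log2 fold change minus the female one was -0.595 (SE 0.142, adjusted p = 0.0489). Its counts were spread over all 87 double-positive wells, and the difference did not pass in DESeq2 (-0.63), with depth-matched wells (-0.67), or without female 2, female 3, male 2 or male 3 (-0.62, -0.43, -0.54 and -0.53). For Pomc, the precursor of melanocortin peptides of the arcuate nucleus, the value was 3.85 (SE 0.479, adjusted p = 3.31e-12). It rests on 1 double-positive well of male 2, which held 73 of the 74 counts of Pomc in that mouse's double-positive wells. Summed Pomc stood at 7.39, 714 and 11.9 CPM in double-positive wells of males 1 to 3, against 303, 992 and 535 CPM in their other wells. It stood at 26.8, 0 and 23.7 CPM in double-positive wells of females 1 to 3, against 19.1, 30.3 and 1704 CPM in their other wells. Without male 2 the value was 0.12, without female 3 it was -1.55, and in DESeq2 it was -1.41.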

How the results depend on the processing

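The number of genes called between double-positive and other wells was 24, and it was 3 with DESeq2, 4 with limma on mean log levels, 0 without the mouse as a replicate block, 8 with depth-matched wells, 0 in wells thinned to 2000 counts, 15 without each gene's highest well and 44 without the filter on low counts. Leaving out 1 mouse gave 14 to 28. The Nrgn difference passed in 17 of 19 alternatives and kept its direction in all 19. Other named genes passed less often. Nnat passed in 16 of 19, Calb1 in 15 of 19, Cbln1 in 12 of 19 and Adcyap1 in 10 of 18. Itm2b passed in 7 of 19, Map1a and Tmem163 in 6 of 18 each and Bcl11a in 6 of 17. Rac1 passed in 5 of 19 and Clmp in 5 of 15. None of these genes reversed. Against wells with Tac1 and no Rprm, 2 genes were called, and 0 with DESeq2, 0 without the replicate block, 5 with a robust dispersion, 11 without the filter, and 0 to 11 when 1 mouse was left out. Against wells with Rprm and no Tac1, 8 genes were called, and 0 with DESeq2, 0 without the replicate block, 19 without the filter, 4 with depth-matched wells, 2 without each gene's highest well, and 4 to 11 when 1 mouse was left out. Between the sexes 0 genes were called, 11 without the filter and 0 to 3 when 1 mouse was left out. The replicate numbers of the sexes share only a number: deviations of same-numbered males and females correlated at -0.08, -0.06 and 0.06, and the replicate block called 0 genes as well. The interaction called 2 genes, 0 with DESeq2, 0 with a robust dispersion, 5 without each gene's highest well, and 0 to 4 when 1 mouse was left out.

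The male minus female share of double-positive wells, 0.643 percentage points, was -4.73 after thinning, -0.454 at 1000 genes per well and -2.25 to 4.21 when 1 mouse was left out. The Pgr difference of 4.78 points was -0.218 with depth-matched wells and -0.653 at 2 counts of the gene. The Nr5a1 difference of 1.79 points was -1.04 after thinning, -0.0339 at 2 counts and -3.44 to 6.29 when 1 mouse was left out. Against other wells with a count of Slc17a6 and none of Gad1, Gad2, Slc32a1 or Pomc, Sst was at 0.14 and Fezf1 at -0.18 (log2). Fezf1 ran from -0.0147 to 0.416 when 1 mouse was left out. Slc17a6 was at 0.0568 with at least 2 counts of Tac1 and of Rprm, and Cartpt ran from -0.25 to 0.89 when 1 mouse was left out. The Pomc interaction of 3.85 was -1.405 in DESeq2 and ran from -1.554 to 4.469 when 1 mouse was left out. The causes were not tested. Depth limits all shares: 39 double-positive wells rest on 1 count of Rprm.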

Other observations

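Several other gene groups held no gene that passed between double-positive and other wells of the same mouse. Of 77 tested ribosomal protein genes, 17 synaptic vesicle genes, 10 granins and peptide-processing enzymes, 9 axon guidance genes, 7 glutamatergic genes and 4 potassium channel genes, 0 passed in edgeR, against 0.808% of all genes, a share at which few or no calls arise in lists of this size. Their median log2 fold changes were -0.05, 0.03, -0.04, 0.00, 0.13 and 0.07, against -0.01 over all genes. Within the factor lists, Lmo4 was detected in 46.0% of double-positive wells, 36.3% of other wells and 34.5% of matched wells, higher than in other wells in 5 of 6 mice, and in 50.0% of wells with Tac1 and no Rprm. Prdm13 was detected in 14.9, 7.67 and 3.45% of them. The stress-response gene Sesn2 was detected in 17.2, 8.58 and 10.3%, higher than in other wells in 6 of 6 mice and than in matched wells in 3 of 6. Cartpt and Sst occurred together in 8 double-positive wells (9.20%, exact interval 4.05 to 17.3%), 19 other wells (4.29%) and 2 matched wells (2.30%). These shares were chosen after their values were seen and were not tested.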
